A study of Mus musculus with 18 samples.

Results

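Mx1 and 8 further interferon-response genes (Mx2, Ifit1, Ifit3, Isg15, Irf1, Irf7, Ddx58 and Psmb9) were followed in NaF, a line of mouse mammary carcinoma cells. The 9 genes were chosen by symbol, out of 22180 genes measured, and each had 1 probe set. Mx1 led to the choice because it was higher after retinoic acid than in the control, so its values with retinoic acid are given as a description without a test. In these data retinoic acid raised none of the 8 other genes past the test.

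Interferons are secreted proteins that cells release when they sense viral nucleic acids. Type I interferons act through IFNAR receptors and the kinases JAK1 and TYK2, and a complex that includes STAT2 and IRF9 then binds interferon-stimulated response elements (ISRE) in the promoters of antiviral genes. Interferon-γ signals through JAK1 and JAK2 and acts on a different promoter element, GAS, as in Irf1. Mx1 encodes a dynamin-like GTPase that blocks influenza viruses. Many inbred laboratory mouse strains carry defective copies of Mx1 and Mx2, and the reference annotation of C57BL/6J lists both as transcribed pseudogenes.

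Gene expression was measured on 18 Affymetrix arrays in 6 groups of 3. All cells grew in DMEM with 10% fetal bovine serum. For 12 arrays the serum was charcoal-treated from 48 hours before the ligand, which strips it of small lipophilic molecules. These were 3 untreated controls and 3 arrays each with all-trans retinoic acid (the natural ligand of the retinoic acid receptors, RAR), TTNPB (a synthetic RAR agonist) or GW1516 (a synthetic PPARδ agonist), all at 1 µM for 6 hours. The other 6 arrays came from cells in full, untreated serum, 3 without treatment and 3 with palmitate, a saturated fatty acid, at 10 µM for 6 hours. The labels name no donor strain for the line and do not say whether replicates were separate cultures, so the p-values cover the array-to-array spread and that spread may be technical.

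All values are log2 expression values as deposited. The arrays of each serum had their own distribution (medians of all probe sets between 1.06 and 1.32 in charcoal serum and between 0.47 and 0.55 in full medium), so levels were compared only within a serum. Background was taken, in each group, as the 95th percentile of the means of 1394 olfactory and vomeronasal receptor genes. In charcoal serum it was 1.31 for the control, 1.15 for retinoic acid, 1.29 for TTNPB and 1.30 for GW1516. In full medium it was 0.59 for the control and 0.63 for palmitate. One array, GW1516 replicate 3, lay 0.231 on average from its group mean, against 0.0816 to 0.145 for the other 17 arrays. Of 7 measured epithelial markers 4 passed background in charcoal controls: Krt18 (7.99 ± 0.05 SD, n = 3) and Cdh1 (4.88 ± 0.06) by far, Krt8 (1.68 ± 0.11) and Epcam (1.51 ± 0.21) narrowly. Krt19 (1.29), Krt7 (1.07) and Krt14 (0.97) did not. Of 9 measured leukocyte markers, 3 (Ptprc, Cd68 and Siglech) passed background in charcoal controls, none with a mean above 1.82. The summed linear level of those 9 markers ranged from 20.1 to 21.6 in charcoal controls and from 17.99 to 20.6 with retinoic acid. Of 4 endothelial markers only Cdh5, a cadherin gene, passed background in charcoal controls, at 8.90 ± 0.09, and Pecam1, Kdr and Tek were under it. Of 6 fibroblast markers Vim (10.59 ± 0.01) and Pdgfra (4.88) passed, and Col1a1, Col1a2, Col3a1 and Thy1 were under it. With retinoic acid Cdh1 was at 5.46 ± 0.15, Cdh5 at 8.73 ± 0.05 and Pdgfra at 5.65, and the part of these markers in the results was not tested. In bulk RNA, fewer cells expressing a gene and less of its RNA per cell cannot be told apart.

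The interferon elements of 4 of the genes are shown because they are what a shared interferon response would act through. RefSeq promoter windows of GRCm38.p6 (250 bases before to 50 after the transcription start) were matched for 7 of the 9 genes, the exceptions being Mx1 and Mx2. Capitals mark each match to the ISRE core, GAAANNGAAA on either strand, and in Irf1 to the GAS core, TTCNNNGAA. Matches may overlap, as in Isg15.
Ifit1, chr19:34640770-34640828, plus strand: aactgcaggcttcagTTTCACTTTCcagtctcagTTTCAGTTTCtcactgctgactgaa
Ifit3, chr19:34583358-34583431, plus strand: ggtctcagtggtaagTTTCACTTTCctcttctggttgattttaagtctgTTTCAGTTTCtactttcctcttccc
Isg15, chr4:156200860-156200911, minus strand: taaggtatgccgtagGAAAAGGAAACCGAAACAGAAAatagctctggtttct
Irf1, chr11:53769909-53769947, plus strand: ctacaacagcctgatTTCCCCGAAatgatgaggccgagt

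Ifit1 and Ifit3 each held 2 ISRE cores, from 104 to 76 and from 156 to 113 bases before the start. Isg15 held 3 overlapping ones, from 78 to 57 bases before the start. Ddx58 had a match just after its start, and the windows of Irf7 and Psmb9 had none of either core. Over all promoter windows of that length 3.44% held the ISRE core and 8.30% the GAS core, and over the 112 windows of the wider interferon lists described further on 34.8% and 22.3% did. A direct repeat of RAR half-sites (AGGTCA or AGTTCA, also with the opening A as a G) spaced by 5 bases was found in 0.0974% of all windows and in none of the 8 windows of these genes, nor were repeats spaced by 1 or 2 bases. Repeats spaced by 1 and 2 bases were in 0.222% and 0.268% of all windows. At such low shares, finding none in 8 windows says little. The window of Cyp26b1, a classical RAR target, held none of the repeats either. A match describes the letters only.

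Mx1 (probe set 17332531, Entrez 17857, chromosome 16 from 97447035 to 97462906 on GRCm38.p6) read 2.13, 2.39 and 2.72 on the charcoal control arrays. With retinoic acid it read 3.75, 3.93 and 3.68. All 3 retinoic acid arrays lay above every other charcoal-serum array, of which the highest was 2.89. The group means were 2.41 ± 0.30 and 3.79 ± 0.13 (SD, n = 3 arrays in each), which is a log2 difference of 1.38 ± 0.18 (SE) or 2.59-fold. That was the 31st highest of the 22180 signed differences in this comparison, so falls of larger size are not counted.

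The other charcoal-serum ligands left Mx1 near the control level. With TTNPB the arrays read 2.63, 2.18 and 2.71, and with GW1516 they read 2.47, 2.41 and 2.89, so both groups overlapped the control. The log2 difference from the control was 0.09 for TTNPB (95% interval -0.28 to 0.46, limma adjusted p = 0.935) and 0.18 for GW1516 (-0.19 to 0.55, adjusted p = 0.68). These intervals reach 1.38-fold and 1.46-fold upward. Both comparisons use the same control arrays as that of retinoic acid. By level the order in charcoal serum was retinoic acid, GW1516 (2.59 ± 0.26), TTNPB (2.50 ± 0.29) and control, and the last 3 did not differ beyond their spread.

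For its close relative Mx2, another GTPase of the family, no rise past background was seen. Mx2 read 0.75, 0.90 and 0.76 in charcoal controls and 1.02, 0.91 and 0.83 with retinoic acid. Every group mean of Mx2 was under background in both sera, so its level was not measurable here. The log2 difference with retinoic acid was 0.12 ± 0.10 (SE, limma adjusted p = 0.624).

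**Figure D1:**
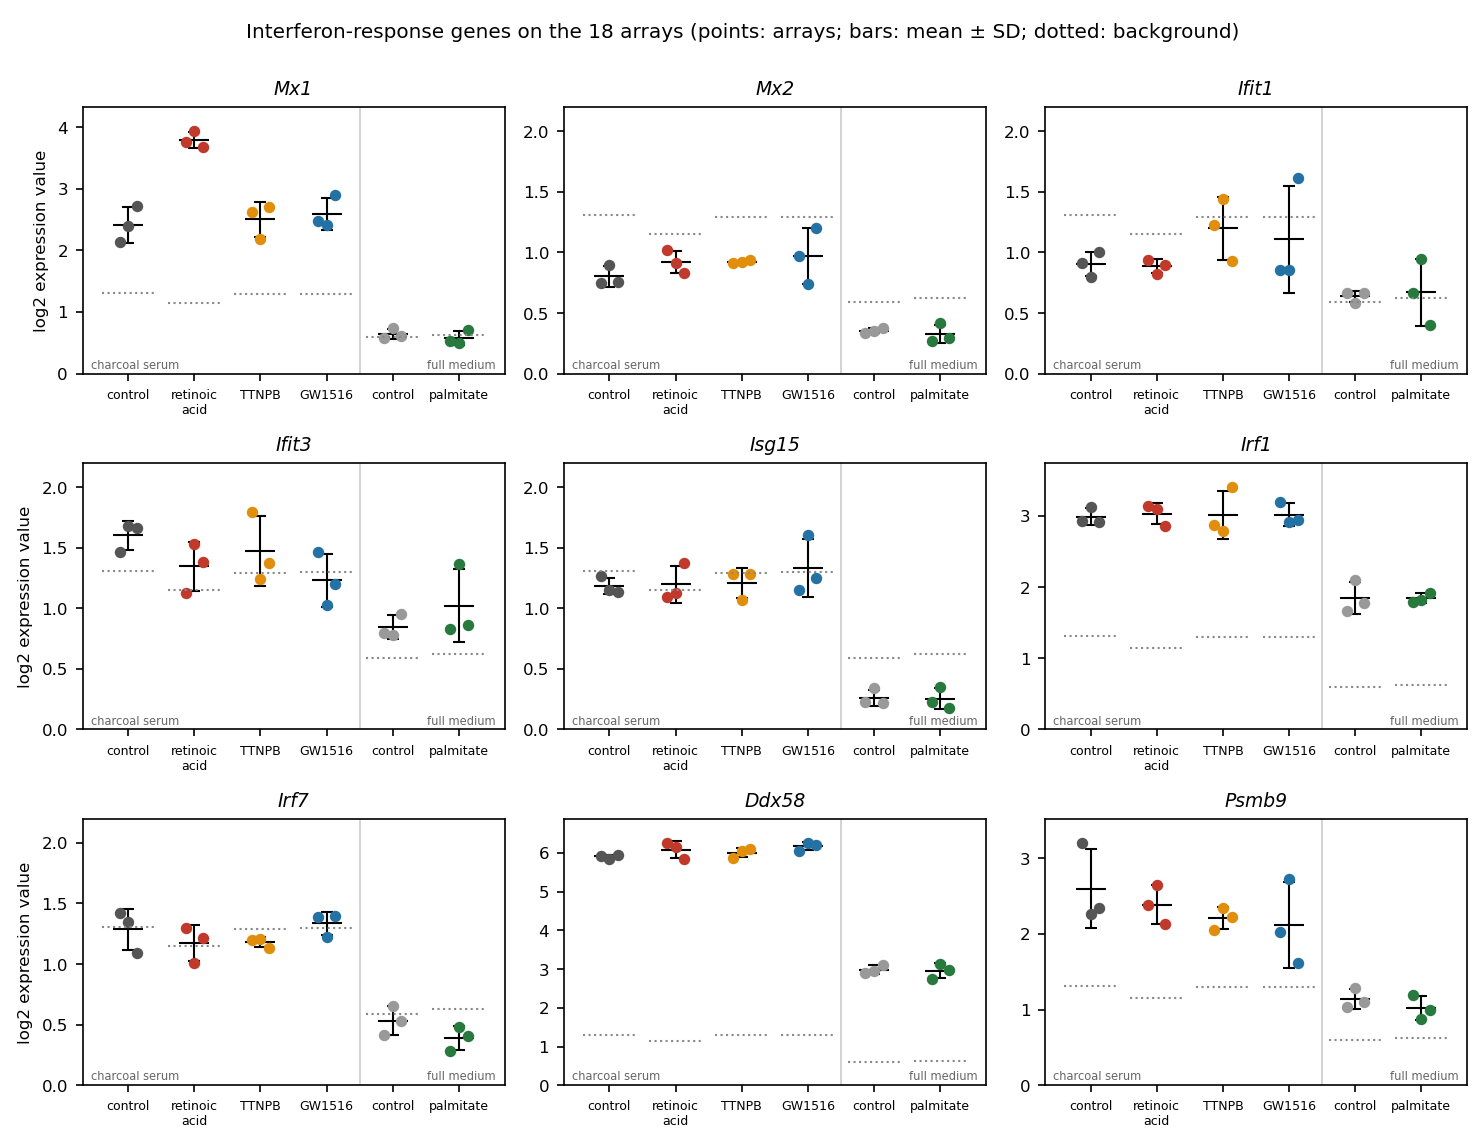
Log2 expression values of the 9 genes, 1 panel a gene, on the 12 charcoal-serum arrays and the 6 full-medium arrays; points are arrays, bars the mean ± SD of 3, and dotted lines the background of each group. Mx1 reads between 3.68 and 3.93 with retinoic acid and at most 2.89 on any other array, while the retinoic acid arrays of the other 8 genes overlap their controls.

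The antiviral effectors Ifit1, Ifit3 and Isg15 carry the ISRE cores printed above and are among the most strongly induced genes of a type I interferon response. IFIT1 and IFIT3 form complexes that bind foreign RNA, and ISG15 is a ubiquitin-like protein joined to other proteins. Ifit1 read 0.92, 0.80 and 1.00 in charcoal controls and 0.94, 0.82 and 0.90 with retinoic acid, all under background. Its log2 difference was -0.02 ± 0.18 (SE, limma adjusted p = 0.978). Isg15 read 1.26, 1.15 and 1.14 in controls and 1.09, 1.13 and 1.37 with retinoic acid. Of these readings only 1.37 was above the background of its group. The difference of Isg15 was 0.01 ± 0.12 (SE, limma adjusted p = 0.98). The values of both genes thus overlapped fully between the groups.

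Ifit3 stood a little over background in charcoal controls and with retinoic acid. It read 1.47, 1.68 and 1.66 in charcoal controls and 1.13, 1.53 and 1.38 with retinoic acid, a log2 difference of -0.26 ± 0.17 (SE, limma adjusted p = 0.512). With GW1516 it read 1.46, 1.03 and 1.20, a difference of -0.37 (95% interval -0.73 to -0.02, unadjusted p = 0.0401, adjusted p = 0.296). The GW1516 mean, 1.23, was under background, so that difference may be understated. On GW1516 replicate 3, the array that stood apart, Ifit1 read 1.61 against 0.85 on each of the other GW1516 arrays.

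Of the factors, Irf1 is induced mainly by interferon-γ, and Irf7 is the main amplifier of type I interferon production. Irf1 was clearly measurable and level in charcoal serum. It read 2.93, 3.13 and 2.91 on control arrays and 3.14, 3.09 and 2.86 after retinoic acid. It read 2.87, 2.79 and 3.41 after TTNPB and 3.20, 2.91 and 2.95 after GW1516. All 4 groups overlapped, and its differences from the control lay between 0.03 and 0.04 with the 3 ligands (adjusted p = 0.946 for retinoic acid, limma). Irf7 read 1.42, 1.35 and 1.09 in controls and 1.30, 1.01 and 1.22 with retinoic acid, close to background in each group (log2 difference -0.11 ± 0.11 SE, adjusted p = 0.698).

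Ddx58, also written Rigi, encodes RIG-I, a sensor of viral RNA that interferons induce in turn. It was far above background, at 5.93, 5.85 and 5.94 in charcoal controls and 6.26, 6.16 and 5.83 with retinoic acid. Retinoic acid replicate 3 lay under all 3 controls. The log2 difference was 0.18 ± 0.13 (SE, limma adjusted p = 0.58), with an upper 95% bound of 1.37-fold. With GW1516 the difference was 0.26 (-0.01 to 0.54, adjusted p = 0.353).

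Psmb9 encodes a catalytic subunit of the immunoproteasome, which interferon-γ induces for antigen processing. It read 3.20, 2.26 and 2.34 in charcoal controls and 2.38, 2.65 and 2.13 with retinoic acid, so 1 control array stood well above the rest. The log2 difference was -0.21 ± 0.25 (SE, limma adjusted p = 0.77). With TTNPB the difference was -0.39 and with GW1516 -0.48 (adjusted p = 0.652 and 0.383). Without control replicate 1, the high array, the 3 differences were 0.09, -0.09 and -0.18, so the direction with retinoic acid rests on that array.

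**Figure D2:**
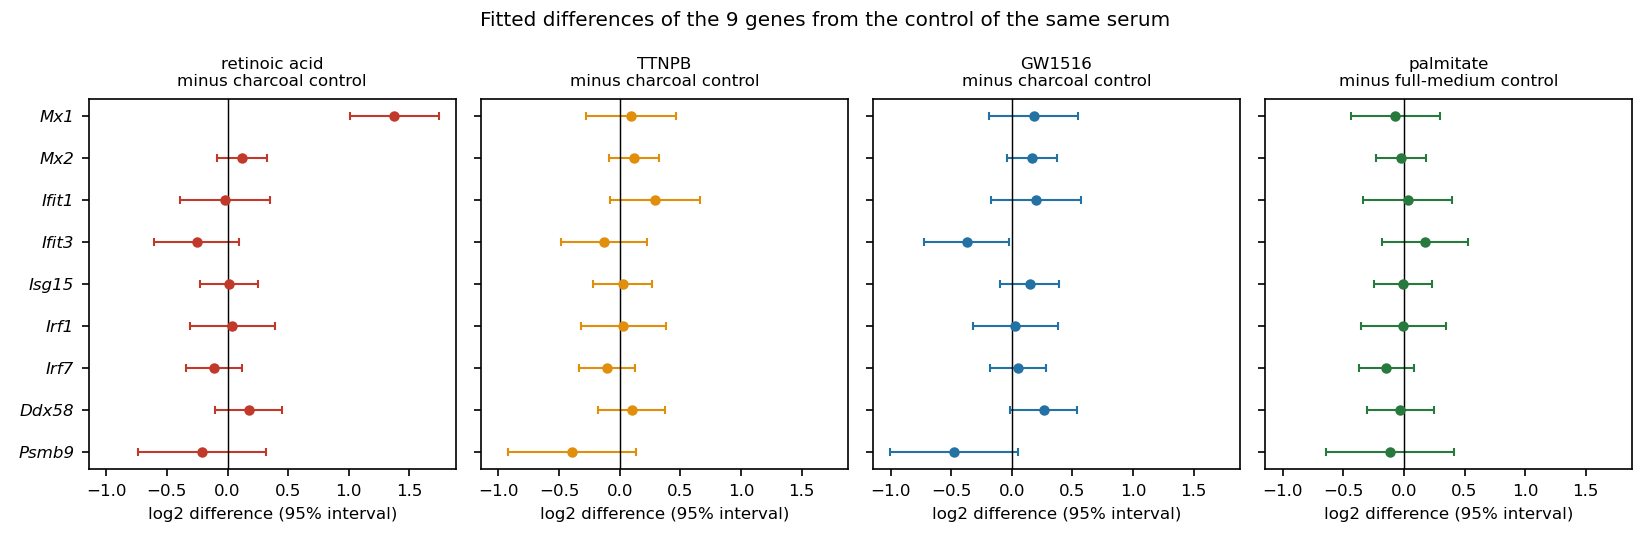
Fitted log2 differences of the 9 genes from the control of the same serum, with 95% intervals, for retinoic acid, TTNPB, GW1516 and palmitate. With retinoic acid Mx1 lies at 1.38 and the other 8 between -0.26 and 0.18. The interval of Mx1 with retinoic acid is no test, because Mx1 was chosen for its rise there.

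Over the 8 genes other than Mx1, limma called 0 in each of the 4 ligand comparisons. Over all genes tested, 5.29% were called with retinoic acid, 1.26% with TTNPB, 2.57% with GW1516 and 0.681% with palmitate. At an unadjusted p under 0.05 the counts among the 8 genes were 0, 0, 1 (Ifit3, lower with GW1516) and 0. The share of all genes at that unadjusted level is not given, so such counts, here and further on, are descriptions only. The median difference of the 8 genes with retinoic acid was 0.00, beside -0.03 over all genes, and 4 of the 8 were above 0. None of their upper 95% bounds with retinoic acid exceeded 1.37-fold. Of the 8 genes 6 were above background in controls or with retinoic acid. Isg15 (means 1.18 and 1.20) and Irf7 (1.29 and 1.17) were among them only by the background of retinoic acid. That was 1.15, beside 1.31 in controls. For Mx2 and Ifit1, under background in both groups, a rise that stayed under it could not be seen.

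Lists of 122 interferon pathway genes, of which 108 were measured by a probe set with 1 gene symbol, put the 9 genes in a wider frame. In charcoal controls 57 of the 108 were above background. Leaving out Mx1, retinoic acid called 4 of 107, or 3.74%, near the 5.29% of all genes. Only 65 of the 107 were above background in controls or with retinoic acid, so this share cannot show a lack of response. The median log2 difference of the 107 genes was -0.01.

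The interferon genes themselves gave 0 limma calls with retinoic acid among 11 measured, with 2 at an unadjusted p under 0.05 (Ifna1 and Ifna11). Of the 11 genes 2 were above background in controls and 4 with retinoic acid, where background was lower. Ifnl2, an interferon-λ gene, was at 3.28 in controls and 3.26 with retinoic acid. Ifna1, an interferon-α gene, was at 1.42 and 1.93, a difference of 0.50 with overlapping arrays (adjusted p = 0.248). Ifnb1, the gene of interferon-β, was under background in every charcoal-serum group (mean 1.04 in controls and 0.91 with retinoic acid). Of 40 effectors, 17 were above background in controls and 21 with retinoic acid, and, leaving Mx1 aside, 1 was called, Tor3a. Over all genes 5.29% were called with retinoic acid. The effectors Ifit2, Rsad2, Oas2 and Bst2, chosen here after their values were seen as classical interferon-induced genes, had control means between 0.90 and 1.16, all under background. Other effectors, also picked after their values were seen, were well above background and were not called. From control to retinoic acid, Ifitm3 went from 8.45 to 8.51, Ifi27 from 4.97 to 5.40 and Eif2ak2 from 3.74 to 3.92. The arrays of these genes overlapped. Ifi35 went from 5.69 to 5.34, without overlap. Of 25 genes of antigen processing and the interferon-γ response limma called 0, with 4 at an unadjusted p under 0.05. Among them Tap1, which encodes a subunit of the peptide transporter, went from 5.30 to 5.31, and B2m, which encodes the light chain of MHC class I, from 10.48 to 10.63 (limma adjusted p = 0.992 and 0.491).

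**Figure D3:**
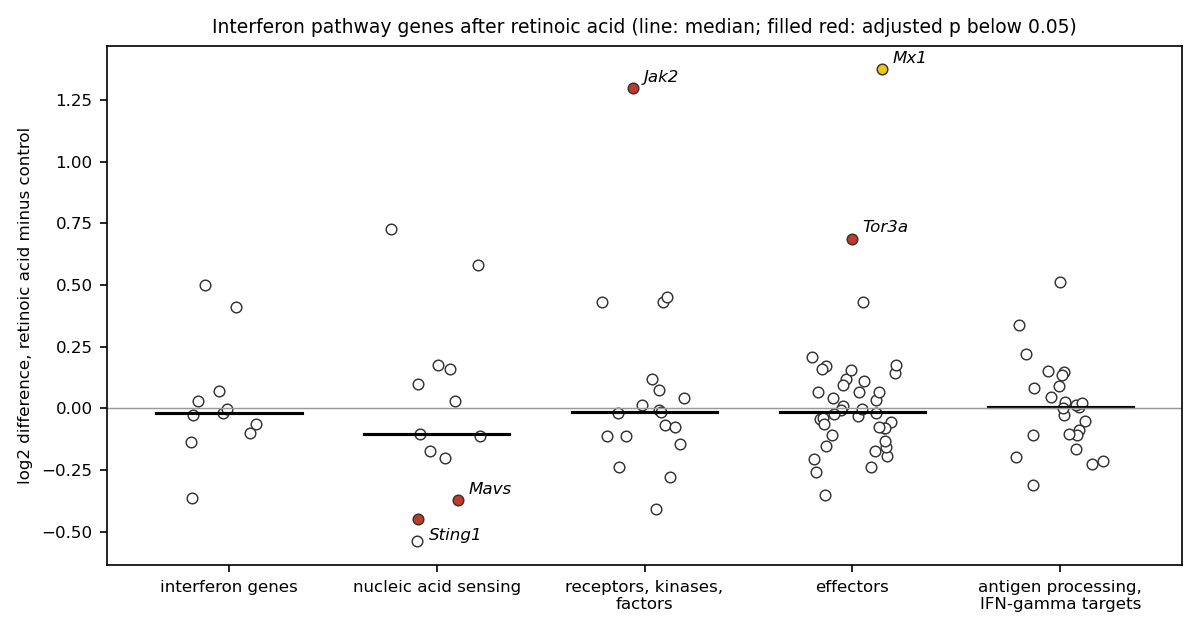
Log2 difference between retinoic acid and control for each measured gene of the 5 interferon lists; filled red points passed the test, the yellow point is Mx1 (shown without a test) and lines are list medians. Mx1 at 1.38 and Jak2 at 1.30 stand above the rest, and the list medians lie between -0.11 and 0.01.

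Among 19 receptor, kinase and factor genes, Jak2 rose. It encodes the kinase that JAK1 pairs with under the interferon-γ receptor and that also serves several cytokine and hormone receptors. Jak2 read 4.0, 3.74 and 4.19 in charcoal controls and 5.21, 5.46 and 5.17 with retinoic acid. With TTNPB it read 4.79, 5.16 and 4.71, and with GW1516 4.97, 4.92 and 5.42. Every ligand array was thus above every control array, in contrast to Mx1. The rise was 2.46-fold with retinoic acid (log2 difference 1.30 ± 0.20 SE, limma adjusted p = 0.000651), 1.87-fold with TTNPB (0.91, adjusted p = 0.0311) and 2.18-fold with GW1516 (1.12, adjusted p = 0.00527). The 3 comparisons share their control arrays. The TTNPB call was lost without any 1 of control replicates 1 and 2 or TTNPB replicates 1, 2 and 3 (adjusted p between 0.0589 and 0.162) and with arrays centred on their medians (0.0594), and the GW1516 call when only its 6 arrays were fitted (0.197).

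The receptor and factor genes next to it did not pass with retinoic acid. Ifnar1, an interferon receptor gene, had a log2 difference of -0.15, Stat2 of -0.01 and Irf9 of -0.07 (limma adjusted p = 0.817, 0.997 and 0.924). Jak1 differed by 0.43 (limma adjusted p = 0.0803). Irf3 went from 4.47 to 4.06, the largest fall of this list at -0.41, and Irf8 from 1.99 to 2.44. Neither passed the threshold, though in both the retinoic acid arrays did not overlap the controls. After quantile normalization Irf3 was called.

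Tor3a, a torsin family gene that interferon is known to induce, rose 1.61-fold with retinoic acid, from 2.52 ± 0.07 to 3.20 ± 0.05 (SD, n = 3 each; limma adjusted p = 0.011). It read 2.44, 2.55 and 2.56 in controls and 3.20, 3.26 and 3.16 with retinoic acid. The rise was 1.5-fold with GW1516 (adjusted p = 0.0483), and with TTNPB the difference was 0.50 (adjusted p = 0.145). Its retinoic acid call was lost without retinoic acid replicate 2 (adjusted p = 0.0526) and after quantile normalization (0.101). Its GW1516 call was lost without control replicate 1, 2 or 3 (0.146, 0.12 and 0.0897) or GW1516 replicate 1 (0.142), after quantile normalization (0.17) or median centring (0.101), and with only the 6 arrays compared (0.378) or the charcoal-serum arrays (0.0889) fitted.

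In the list of 13 nucleic acid sensing genes, 2 fell with retinoic acid and none rose, beside 1.47% of all genes called lower and 3.82% called higher. Both encode adaptors that pass the signal of a sensor to interferon production. Differences in the other direction that missed the threshold were 0.73 for Zc3hav1 (adjusted p = 0.0557, no overlap) and 0.58 for Tlr3, a receptor for double-stranded RNA (adjusted p = 0.065, overlapping). The largest fall of the list, -0.54, was that of Ticam1, which missed the threshold. Ticam1 read 4.83, 4.96 and 4.73 in controls and 4.31, 4.48 and 4.12 with retinoic acid, without overlap. Some of the alternatives called it, among them array weights and quantile normalization. Sting1, the adaptor of the DNA sensor cGAS, read 7.81, 7.66 and 7.84 in controls and 7.26, 7.42 and 7.28 with retinoic acid. It fell by 0.45 ± 0.12 on the log2 scale (SE, limma adjusted p = 0.0273). Mavs, the adaptor of RIG-I, read 7.40, 7.24 and 7.22 in controls and 6.92, 6.98 and 6.85 with retinoic acid. It fell by 0.37 ± 0.09 (adjusted p = 0.0166). In both genes the groups did not overlap. Sting1 lost its call without any 1 of the 6 arrays other than control replicate 2 (adjusted p between 0.0524 and 0.116), and with only the charcoal-serum arrays fitted (0.0638), and Mavs without control replicate 1 or retinoic acid replicates 1 or 3 (0.0626 to 0.0908). With arrays centred on their medians neither passed (0.0558 and 0.174). Leaving Mx1 out, the calls over all lists were 2 rises and 2 falls as deposited, 3 rises and 0 falls after centring and 3 rises of 7 calls after quantile normalization. Over all genes called with retinoic acid, 72.2% were higher as deposited, 84.5% after centring and 54.6% after quantile normalization.

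TTNPB and GW1516 differed from retinoic acid by few pathway calls. TTNPB called Jak2 alone of the 108 genes (0.926%, beside 1.26% of all genes). GW1516 called Jak2 and Tor3a (1.85%, beside 2.57% of all genes). Both shares were near those of all genes. The median log2 differences of the 107 genes other than Mx1 were 0.02 and 0.01, beside 0.00 and -0.01 over all genes.

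Genes beside Mx1 on chromosome 16 were also examined. Bace2, which encodes a β-secretase-like membrane protease, ends at 97442936, 4099 bases from Mx1, and was called with retinoic acid. It read 7.23, 7.11 and 7.24 in charcoal controls and 7.71, 7.71 and 7.81 with retinoic acid. It read 7.46, 7.54 and 7.46 with TTNPB and 7.24, 7.14 and 7.11 with GW1516. The rise with retinoic acid was 1.46-fold (log2 difference 0.55 ± 0.08 SE, limma adjusted p = 0.0003), and no retinoic acid array overlapped a control. With TTNPB the arrays also lay above the controls, by 0.29 (adjusted p = 0.0785), and with GW1516 they did not, at -0.03 (adjusted p = 0.897). Bace2 kept its retinoic acid call under all 16 alternatives run. The direct difference between retinoic acid and GW1516 was 0.58 (adjusted p = 0.00106), and that between retinoic acid and TTNPB 0.26 (adjusted p = 0.32).

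The other measured neighbours did not pass with retinoic acid. Fam3b, 8059 bases from Mx1 on the other side, had a log2 difference of -0.01 and was under background, as were Mx2, Tmprss2 and, with more distance, Pcp4. Dscam, a cell adhesion gene, differed by -0.05 (limma adjusted p = 0.878).

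Of 11349 other named genes above background in some charcoal-serum group, the 5 whose values followed those of Mx1 most closely over the 12 charcoal-serum arrays (Pearson's r) were Map3k6 (0.947), Cyp26b1 (0.929), Lhfp (0.926), Slc45a3 (0.896) and Ebf2 (0.894). These points share their arrays and the retinoic acid group, which sets most of the spread. Map3k6, a stress-kinase gene of the MAP kinase cascade, read 3.31, 3.65 and 3.70 in controls and 5.22, 5.16 and 4.82 after retinoic acid. It read 3.48, 3.54 and 4.30 after TTNPB and 3.56, 3.76 and 3.85 after GW1516. Cyp26b1, a classical RAR target whose product breaks down retinoic acid, read 6.21, 6.06 and 5.83 with retinoic acid and between 3.10 and 4.25 on the other charcoal-serum arrays. Ebf2 has 2 probe sets, which disagreed: the one used differed by 0.90 between retinoic acid and control and the other by -0.12. None of the 5 genes was on the interferon lists. The closest gene from those lists was Zc3hav1, an antiviral zinc-finger gene, at r = 0.673 and rank 434. Ddx58 had r = 0.247 and Irf1 r = 0.155.

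**Figure D4:**
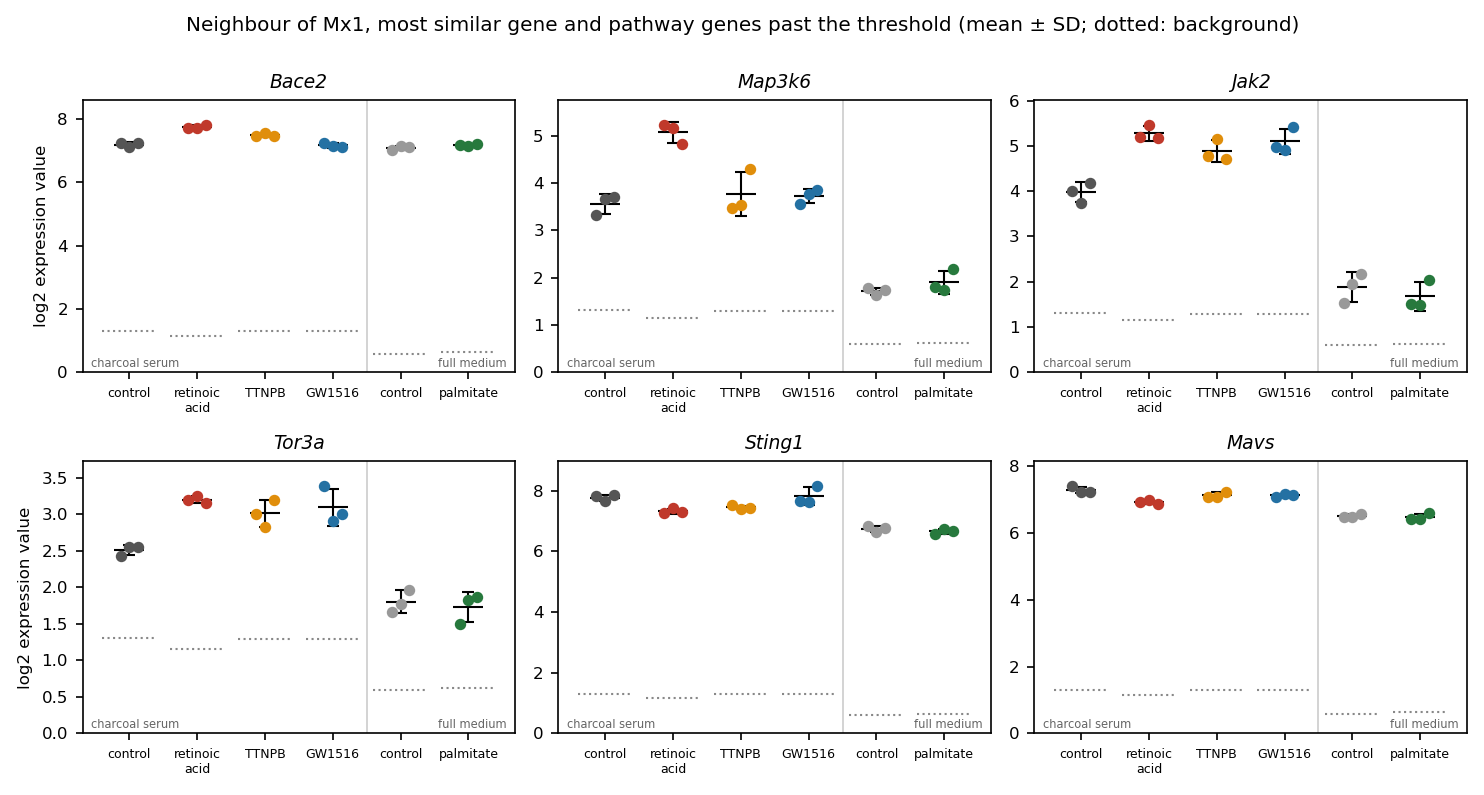
Log2 expression values on the 18 arrays of Bace2 (the neighbour of Mx1), Map3k6 (the gene most like Mx1 over 12 arrays) and 4 called pathway genes; points are arrays, bars the mean ± SD of 3 and dotted lines background. Map3k6 reads between 4.82 and 5.22 with retinoic acid and at most 4.30 on any other array, Bace2 reads between 7.46 and 7.54 with TTNPB, between controls and retinoic acid, and Jak2 is above its controls with all 3 ligands.

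The 3 charcoal-serum ligands could be compared directly, at the same dose and time. TTNPB carries aromatic rings where retinoic acid has most of its polyene chain. Mx1 was 2.43-fold higher with retinoic acid than with TTNPB (log2 difference 1.28 ± 0.18 SE). It was 2.29-fold higher than with GW1516 (1.20 ± 0.18 SE). Both are descriptions without a test, because Mx1 was chosen for its rise with retinoic acid. The retinoic acid arrays did not overlap either group. Over all genes 0.153% differed between retinoic acid and TTNPB and 0.352% between retinoic acid and GW1516, and among the 8 other genes limma called 0 in both, with 0 in both at an unadjusted p under 0.05.

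For the 8 other genes the estimates and intervals describe array values. Mx2 and Ifit1 were under background in every charcoal-serum group, so their intervals do not bound a difference in RNA. Isg15 and Irf7 were close to background. Against TTNPB the estimates ran from -0.31 (Ifit1) to 0.18 (Psmb9), and the intervals from -0.68 to 0.71. Against GW1516 they ran from -0.22 (Ifit1) to 0.27 (Psmb9), with intervals from -0.59 to 0.79. With 1 array left out in turn, the difference of Ifit1 from GW1516 ran from -0.35 to 0.03. Jak2 was 0.39 higher with retinoic acid than with TTNPB (-0.03 to 0.81, limma adjusted p = 0.717).

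Palmitate was tested in full medium, where Mx1 was hardly measurable. Mx1 read 0.58, 0.74 and 0.62 in full-medium controls and 0.53, 0.49 and 0.71 with palmitate, beside backgrounds of 0.59 and 0.63. The groups overlapped (log2 difference -0.07 ± 0.18 SE, limma adjusted p = 1), with an interval of -0.44 to 0.30, and at this level a fall could not be seen. Irf1 read 1.66, 2.10 and 1.78 in controls and 1.79, 1.82 and 1.92 with palmitate. Ddx58 read 2.90, 2.94 and 3.11 in controls and 2.75, 3.13 and 2.98 with palmitate, a difference of -0.03. The widest difference among the other 8 genes was that of Ifit3, at 0.18 (-0.18 to 0.53, adjusted p = 1), with palmitate replicate 2 at 1.37 above the other palmitate arrays (0.83 and 0.86). Of the 108 pathway genes limma called 0 with palmitate, beside 0.681% of all genes, and 3 had an unadjusted p under 0.05. Without palmitate replicate 1 it called 1, the receptor gene Ifnar1, which read 4.76, 3.62 and 3.78 with palmitate and 4.59, 4.63 and 4.88 in controls.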

How the data were processed

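Per the labels' protocols, RNA came from Qiazol and RNeasy extraction and was hybridised as cRNA carrying biotin. The authors deposited 1 log2 value per probe set and array (41345 probe sets, 18 arrays). The submitters' processing notes name Partek; its version and the normalization are not given in the sources used here, and the log2 scale was read from the values. Of the probe sets, 23521 had 1 gene symbol, 1814 several and 16010 none; only the first were used. Symbols were updated by Entrez number for 23328 probe sets found in RefSeq GRCm38.p6. For 1082 genes with more probe sets the one with the highest mean was taken, giving 22180 genes.

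One limma 3.58.1 model of the 6 group means held all 18 arrays (R 4.3.3; eBayes with a trend). P-values were 2-sided, adjusted by Benjamini-Hochberg over all genes of a comparison, with a threshold of 0.05. The number of arrays limits the precision. In a group, 2 arrays shared at most 2.55% of identical values (within 1e-06), so no replicate was merged.

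The genes, lists and tests were chosen with earlier results of these data known. The text names the 9 genes, list genes past the threshold (up to 6 a list and comparison), the 3 nearest measured genes on either side of Mx1, and the 5 genes with the highest Pearson correlation with Mx1; other genes named were chosen after their values were seen. Alternatives were a fit on the groups of the comparison or the arrays of the serum, a replicate block, variances without a trend, array weights, quantile normalization, median centring, dim genes left out, other uses of probe sets and each array left out in turn. The code was tested on simulated data.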

Additional observations from a re-analysis of the deposited data

How the results depend on the processing

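Retinoic acid raised Mx1 over its control by 1.02 (quantile normalization) to 1.53 (without control replicate 3) on the log2 scale under the 16 alternatives, and its difference from TTNPB ran from 0.97 to 1.38. The 8 other genes gave 0 calls in all 6 comparisons under every alternative in which they were tested. Mx2, Ifit1 and Isg15 were not tested where dim genes were left out. Counts over all genes moved more, and the cause was not tested. Fitting only the groups compared gave 1852 calls for retinoic acid (1174 in the fit of all arrays), 498 for TTNPB (279), 3 for GW1516 (570), 1 for palmitate (151), 249 for retinoic acid against TTNPB (34) and 2 against GW1516 (78). Fitting the arrays of the same serum gave 1 for palmitate and 40 for retinoic acid against GW1516. Array weights gave, in the same order, 2014, 622, 1122, 661, 136 and 195. Median centring gave 101 for TTNPB, 299 for GW1516, 32 for palmitate, 20 for retinoic acid against TTNPB and 32 against GW1516. Leaving out dim genes gave 454 for TTNPB, 872 for GW1516, 228 for palmitate and 118 for retinoic acid against GW1516, and quantile normalization gave 487 for TTNPB and 128 for retinoic acid against GW1516. Leaving out 1 array gave 583 to 932, 112 to 170, 198 to 711, 62 to 141, 9 to 24 and 27 to 136 in that order.

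On the interferon lists without Mx1, the calls for retinoic acid went from 4 to 9 with only the groups compared, 7 with array weights, 7 with quantile normalization and 8 without dim genes. For TTNPB they went from 1 to 3 with array weights and 0 with median centring, and for GW1516 from 2 to 0 with only the groups compared and 1 with median centring. Retinoic acid against TTNPB went from 0 to 2 with only the groups compared (B2m and Zc3hav1), and against GW1516 from 0 to 1 with array weights and 1 without dim genes (Sting1). Leaving out 1 array gave 2 to 4 for retinoic acid (2 without its replicate 2 or 3), 0 to 1 for TTNPB, 1 to 3 for GW1516, 0 to 1 for palmitate, 0 to 0 against TTNPB and 0 to 1 against GW1516.

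The second probe set of Ebf2 turned its direction, to -0.12 against the control and -0.18 against GW1516. Same-numbered arrays showed little shared deviation (correlations from -0.28 to 0.212), and the main fit did not pair them. Such correlations cannot show whether same-numbered arrays shared a culture or batch. With the replicate block the calls were 1031, 198, 498, 112, 26 and 67, and those on the lists 5, 1, 2, 0, 0 and 0; Tor3a then missed the threshold with GW1516 (adjusted p = 0.0636). Both groups compared were under background for Mx2 in every comparison with a control, for Ifit1 in those of charcoal serum, and for Isg15 and Irf7 with TTNPB and with palmitate.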
